A study of Populus sp. cv. 'Okanese' with 18 samples.

Results

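The comparison described here is between severe and moderate water deficit in hybrid poplar, in leaves harvested in the early evening. Its members are the 3 libraries at 30 % SWCg (EE30) and the 3 libraries at 50 % SWCg (EE50) taken at 16 h, which are 6 of the 18 libraries of the series and were chosen by their sample titles. SWCg is the gravimetric soil water content, given as a percentage of field capacity. All trees were rooted cuttings of a single hybrid, Populus × ‘Okanese’, raised in a greenhouse with ample water, then kept for weeks at a target soil water content by daily weighing, and the leaves sampled had formed and expanded under that treatment. The EE30 and EE50 groups share genotype, harvest time, RNA extraction kit and library kit, and soil water is the only difference between them that the labels give. Both also share a number in the column headers of the deposited table, whose meaning the sources used here do not state. Well-watered trees at 80 % SWCg (EE80) and the same water levels at 10 h in the late morning (LM30, LM50 and LM80), with 3 libraries each, are described below only beside the early evening step. Their libraries also enter the normalization and the spread of the main fit. Libraries carry the letters A, B and C, and no source used here says what a letter marks or whether replicates are separate trees. The p-values below therefore set group differences only against the spread between libraries, estimated in the main fit over all 18 of the series. That spread may be technical.

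Leaves lose water through stomata while they take up carbon dioxide, and a tree in drying soil limits that loss by closing stomata, a response in which the hormone abscisic acid has a central part. Growth slows before photosynthesis stops, and cells adjust their osmotic balance, cell walls and protection against oxidative damage, partly through changes in transcript abundance. Many of these genes also follow the circadian clock, so that the transcripts a leaf holds at a given water status depend on the hour of harvest.

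The question asked of these 6 libraries is how leaves kept at 30 % SWCg differed from leaves kept at 50 % SWCg, which already lived with a deficit. Each tree was held at a single target level. A step, rise or fall below is therefore a difference between groups, not a change followed within trees. Very few genes differed beyond the spread between libraries. Of 23700 genes tested, 2 were higher and 2 were lower in EE30 than in EE50 at an adjusted p below 0.05, which is 0.00844 % of genes in each direction and 0.0169 % in all (edgeR quasi-likelihood test, Benjamini–Hochberg). The genes that rose were Potri.009G064800 and Potri.014G170400, each slightly more than 2-fold, and those that fell were Potri.001G105900 and Potri.009G063900. The sources used here pair none of these 4 identifiers with a name or a function. Without adjustment, 646 genes were higher and 772 lower at p below 0.05, together 5.98 % of genes. That share is near what this threshold passes without any difference. The other tools run called more genes, DESeq2 16 higher and 18 lower, and the likelihood ratio test of edgeR with robust dispersion 22 higher and 54 lower, and both included the 4 genes.

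The deposited table holds counts of reads for 31033 genes. Total counts were 26807509, 27301736 and 33917159 in EE30 A, B and C and 22831424, 24568017 and 30616906 in EE50 A, B and C, so the groups overlapped in depth. The 20 highest genes took 11.4 % to 12.7 % of the counts in these 6 libraries. Replicates differed by more than counting error, with a chi-square per degree of freedom between 8.09 (EE30 A and B) and 29.1 (EE30 B and C), so no library was a copy of another. Markers of leaf cell types were not checked, since, apart from clock genes named below, the identifiers are not paired with names in the sources used here.

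Distances between libraries of different water levels fell inside the span of distances within EE30, a span that EE30 C widened. The distance between libraries, taken as the root mean square difference in log2 CPM over all genes tested (CPM, the count scaled to library size), was 0.332 for EE30 A and B, 0.460 for EE30 A and C and 0.510 for EE30 B and C. Within EE50 it was 0.413 for A and B as well as for A and C, and 0.347 for B and C. The 9 pairs made of an EE30 and an EE50 library lay between 0.365 and 0.463, inside the span of the pairs within EE30. Their mean of 0.419 was below the mean within EE30 (0.434) and above the mean within EE50 (0.391). EE30 C stood away from EE30 A and EE30 B, which were closer to each other than any other pair. The difference between EE30 and EE50 took 20.6 % of the summed squares of the 6 libraries, and an exact permutation test over the 20 splits of 3 against 3 gave p = 0.50, where the smallest two-sided value possible is 0.10.

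**Figure D1:**
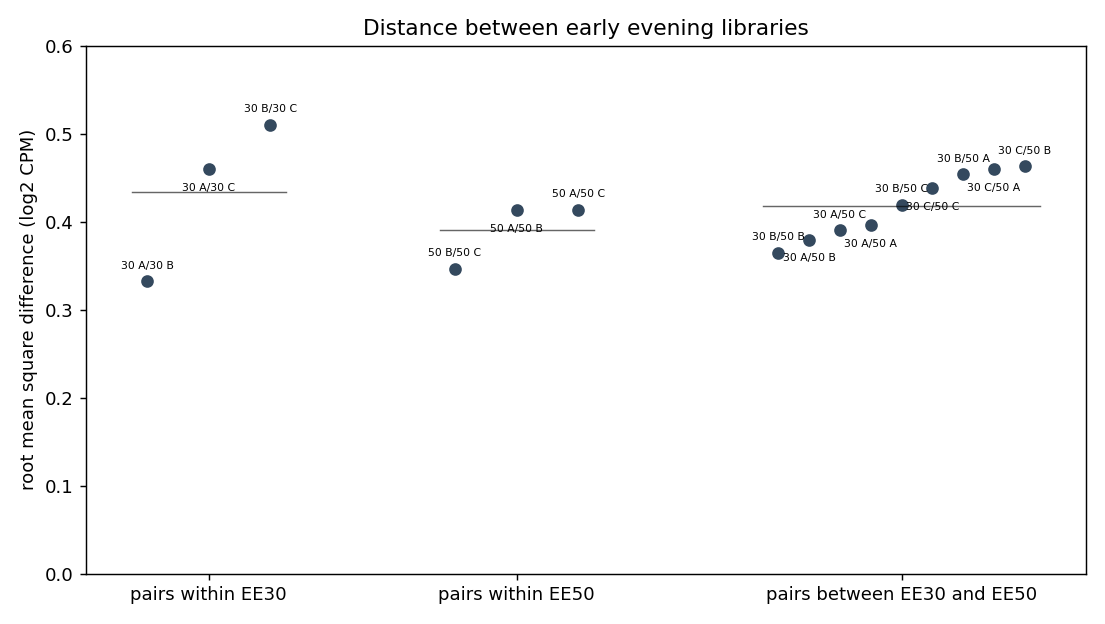
Root mean square difference in log2 CPM over 23700 genes (vertical axis) for each pair of early evening libraries, grouped on the horizontal axis as pairs within EE30, within EE50 and between them, with a line at the mean of each group of pairs. The means are 0.434, 0.391 and 0.419, and the 9 pairs between the water levels fall inside the span from 0.332 to 0.510 of the pairs within EE30.

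Among the genes that rose, Potri.009G064800 lies on the reverse strand of chromosome 9, from base 6551810 to 6555040 of the P. trichocarpa v4.1 genome, with 9 exon records and 2337 exonic bases. Its level was 21.5, 20.6 and 18.2 CPM in EE30 A, B and C and 8.29, 8.83 and 10.07 CPM in EE50 A, B and C. Every EE30 library was above every EE50 library, and both groups were tight. Choosing genes by a small p favours separate and tight groups, so this is no further support, here or for the genes chosen by p below. The means were 20.1 ± 1.70 CPM in EE30 and 9.06 ± 0.913 CPM in EE50 (SD, n = 3 each), a 2.203-fold difference with a log2 fold change of 1.14 (SE 0.16, 95 % interval 0.79 to 1.48, edgeR adjusted p = 0.0323). Counts of 375 to 412 and 136 to 216 reads per library stood behind these values. EE80 was at 7.21 ± 0.378 CPM (SD, n = 3). EE50 exceeded it by 0.34 on the log2 scale, which did not pass (edgeR adjusted p = 0.799), and EE30 by 1.48 (edgeR adjusted p = 0.000632). The call was lost without EE30 A, EE30 B, EE50 A, EE50 B or EE50 C and held without EE30 C, with log2 fold changes of 1.08 to 1.23 and edgeR adjusted p of 0.0410 to 0.203.

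The other gene that rose, Potri.014G170400, is on the reverse strand of chromosome 14, from base 12489427 to 12491675, with 4 exon records and 1970 exonic bases. It was measured at 90.1, 92.7 and 115 CPM in EE30 A, B and C and at 52.1, 37.6 and 47.8 CPM in EE50 A, B and C. The lowest EE30 library exceeded the highest EE50 library by a wide margin, and EE30 C was the highest of the 6. Means of 99.3 ± 13.7 and 45.8 ± 7.46 CPM (SD, n = 3 each) gave a 2.17-fold difference and a log2 fold change of 1.12 (SE 0.17, 95 % interval 0.76 to 1.48, edgeR adjusted p = 0.0416). Its level in EE80 was 36.6 ± 6.72 CPM (SD, n = 3), so that EE50 lay 0.32 above it on the log2 scale (edgeR adjusted p = 0.818) and EE30 1.43 (edgeR adjusted p = 0.000960). Per kilobase of exon it was the more abundant of the genes that rose, at 50.4 CPM per kb in EE30 against 8.58 CPM per kb for Potri.009G064800. Leaving out any 1 of the 6 libraries (EE30 A, B or C, EE50 A, B or C) ended the call, with log2 fold changes of 0.99 to 1.22 and edgeR adjusted p of 0.0681 to 0.294.

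The gene with the smallest p fell. Potri.001G105900 is on the forward strand of chromosome 1, from base 8510988 to 8514249, with 4 exon records and 2587 exonic bases. It stood at 8.18, 9.15 and 7.14 CPM in EE30 A, B and C and at 15.6, 16.0 and 16.0 CPM in EE50 A, B and C. No library of EE30 reached the level of any EE50 library, and the EE50 libraries were almost identical. The means were 8.16 ± 1.01 and 15.8 ± 0.253 CPM (SD, n = 3 each), which is 1.95-fold lower in EE30, with a log2 fold change of -0.96 (SE 0.12, 95 % interval -1.21 to -0.71, edgeR adjusted p = 0.00894). This gene also fell from 80 % to 50 % SWCg, since EE80 held 27.5 ± 5.04 CPM (SD, n = 3) and the log2 fold change of EE50 against EE80 was -0.79 (edgeR adjusted p = 0.0173). It was the gene with the smallest adjusted p in EE30 against EE80 as well, at -1.76 on the log2 scale (edgeR adjusted p = 1.34e-06). The call between EE30 and EE50 was lost without EE30 A (edgeR adjusted p = 0.0953) or EE50 C (edgeR adjusted p = 0.0781) and held without each of the other 4 libraries.

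Potri.009G063900, the other gene that fell, is a gene with 1 exon record of 784 bases on the forward strand of chromosome 9, from base 6506919 to 6507702. Levels were 30.7, 30.6 and 27.9 CPM in EE30 A, B and C and 39.8, 41.9 and 43.7 CPM in EE50 A, B and C. The groups did not overlap, although the difference was the smallest of the 4 genes. From 41.8 ± 1.96 CPM in EE50 the mean fell to 29.7 ± 1.63 CPM in EE30 (SD, n = 3 each), a 1.41-fold difference with a log2 fold change of -0.49 (SE 0.08, 95 % interval -0.65 to -0.33, edgeR adjusted p = 0.0416). EE80 was at 39.9 ± 3.32 CPM (SD, n = 3), with a log2 fold change of 0.06 for EE50 against EE80 (edgeR adjusted p = 0.934) and of -0.43 for EE30 against EE80 (edgeR adjusted p = 0.0112). Without any 1 of the 6 libraries (EE30 A, B or C, EE50 A, B or C) the edgeR adjusted p was 0.0681 to 0.213 and the call was lost, with log2 fold changes of -0.53 to -0.45. It was also lost with no filter on expression (edgeR adjusted p = 0.0796).

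Of the 4 genes, Potri.009G064800 and Potri.009G063900 are near each other on chromosome 9, 44107 bases apart, and moved in opposite directions. The annotation places 6 genes between them, all 6 of which were tested. Their log2 fold changes ran from -0.33 to 0.19, and the smallest unadjusted p among them was 0.194. No other annotated gene span overlaps any of the 4 genes, so the unstranded counting described below does not mix them with an antisense partner in the annotation. A fit of the 6 libraries of EE30 and EE50 alone called none of the 4, with a smallest edgeR adjusted p of 0.224 and 1405 genes at an unadjusted p below 0.05. In these bulk leaf samples, fewer cells of a type and less RNA per cell cannot be told apart.

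**Figure D2:**
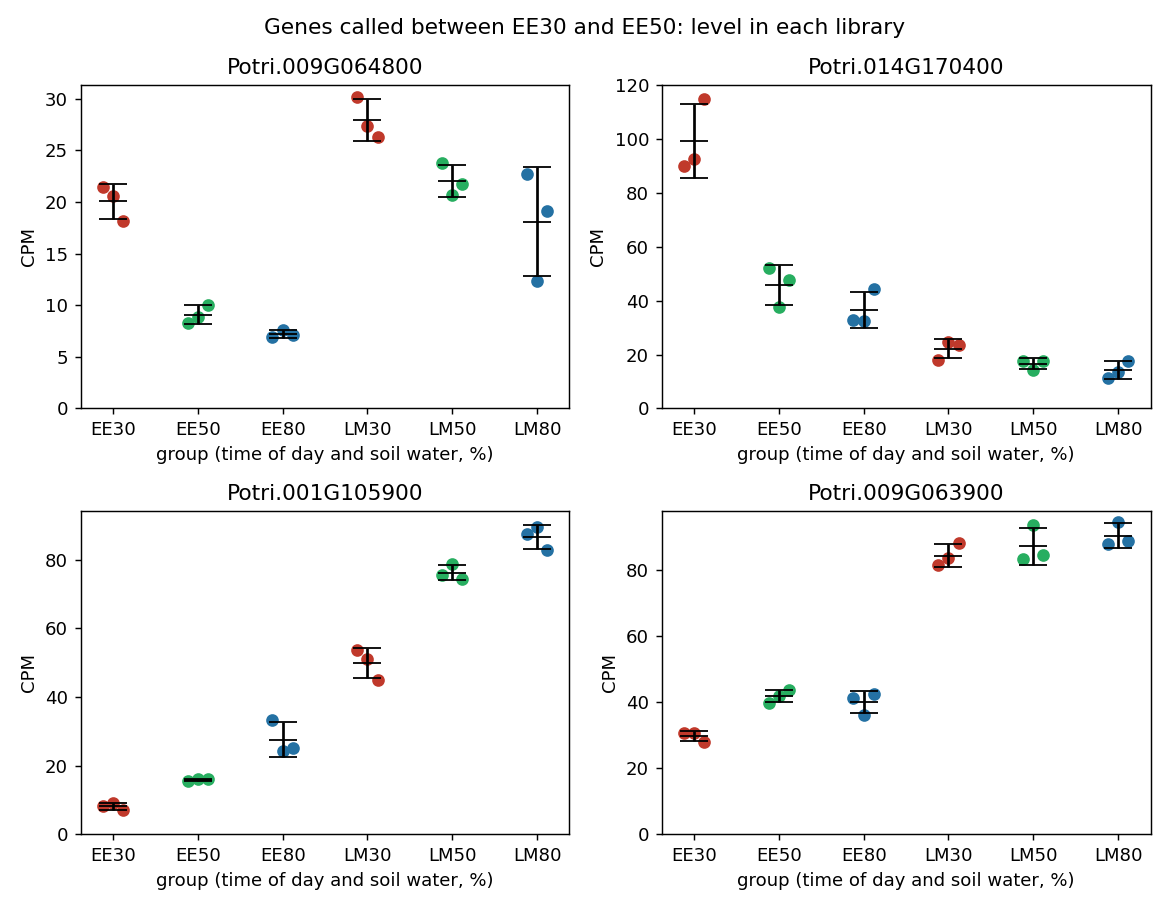
Level in CPM (vertical axes, from 0) of the 4 genes called between EE30 and EE50, in each of 3 libraries of the 6 groups on the horizontal axes, with the mean and SD as black bars. Potri.009G064800 and Potri.014G170400 average 20.1 and 99.3 CPM in EE30 against 9.06 and 45.8 CPM in EE50, while Potri.001G105900 and Potri.009G063900 average 8.16 and 29.7 CPM against 15.8 and 41.8 CPM.

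Just outside the threshold, the next gene by p among those higher in EE30 had 36.1, 35.7 and 35.6 CPM in EE30 A, B and C and 23.9, 28.8 and 25.5 CPM in EE50 A, B and C. Its libraries did not overlap between the groups, and its log2 fold change of 0.46 had an edgeR adjusted p of 0.0635. The next gene among those lower had 24.9, 26.0 and 24.5 CPM in EE30 A, B and C against 40.6, 36.1 and 42.3 CPM in EE50 A, B and C, also without overlap. Its log2 fold change was -0.66 (edgeR adjusted p = 0.108). The 10 genes with the smallest p in each direction spanned log2 fold changes of 0.42 to 1.14 among the higher and -0.44 to -1.98 among the lower, with edgeR adjusted p up to 0.211. In all 10 of each direction the groups did not overlap, which the choice by p favours.

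The step was small for nearly all genes. Its absolute log2 fold change had a median of 0.11 and was under 0.5 for 93.3 % of genes, and the median with its sign was 0.02. The groups did not overlap for 1569 genes that were higher in EE30 (6.62 %) and 1313 that were lower (5.54 %). For such a separation, an exact permutation test of 3 against 3 libraries gives a two-sided p of 0.10. Many genes are therefore separate without any difference between the groups. The precision of the step depended on the level of a gene. The 95 % interval reached a median of 0.99 on the log2 scale to each side of the estimate (1.99-fold) for the 2473 genes under 1 CPM and 0.48 (1.40-fold) for the 6614 genes from 1 to 10 CPM. For the 12302 genes from 10 to 100 CPM and the 2311 genes from 100 CPM upward it was 0.22 (1.17-fold). These are medians of intervals that are not adjusted for the number of genes, and single genes had narrower or wider ones.

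The 226 genes with the highest levels, which the expression limits of the study leave out, also showed no call when all genes were fitted. They had a median log2 fold change of 0.10 and a range from -1.46 to 0.57, with 98.2 % within 0.5 of 0. At an unadjusted p below 0.05, 8 of them were higher and 5 lower in EE30 (edgeR, smallest adjusted p = 0.164), and no other tool was run on them.

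Many of the largest fold changes came with libraries that differed widely within a group. An absolute log2 fold change of 1 or more was estimated for 331 genes, of which 101 were higher and 230 lower in EE30. Only 2 of these were called, both among the higher, and 207 had a mean under 1 CPM in both groups. At an absolute log2 fold change of 2 or more there were 12 higher and 25 lower genes with 0 calls. In 23 of these 37 the libraries of EE30 or of EE50 ranged over 4-fold or more, which was the case for 1.82 % of all genes tested. A mean under 1 CPM in both groups was found for 22 of the 37. Whether their low level accounts for the wide ranges was not tested. Within EE30, 264 genes had such a range, and the library farthest from the middle of the 3 was EE30 C for 195 of them, EE30 B for 45 and EE30 A for 24. Within EE50, 197 genes did, and the library farthest from the middle was EE50 A for 104, EE50 C for 57 and EE50 B for 36.

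**Figure D3:**
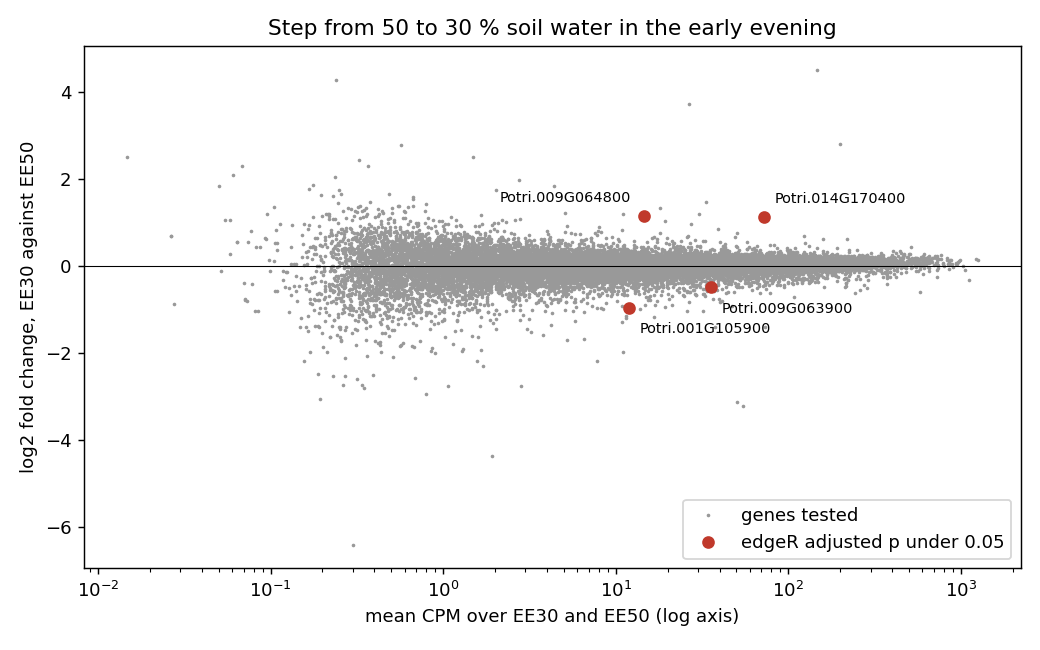
Log2 fold change of EE30 against EE50 (vertical axis) for each of 23700 genes against its mean CPM over the 6 libraries (horizontal log axis), with the 4 genes called by edgeR in red. The cloud narrows from low to high levels, 93.3 % of genes lie within 0.5 of 0, and 37 genes lie at 2 or more from 0, none of them called.

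Among the 14613 genes with a mean of 10 CPM or more over the 6 libraries, 11 were higher and 11 lower by a log2 fold change of 1 or more, the groups did not overlap for 11 of these 22, and 2 were called. Over all genes tested, the groups did not overlap for 6.62 % higher and 5.54 % lower, and edgeR called 0.0169 %. Choosing genes by a large fold change favours separate groups, so these counts are a description. Of the 22 genes, the 2 with the largest fold changes in each direction are given here, chosen after their values were seen. Potri.006G103900 (chromosome 6, bases 7978833 to 7981340) had 591 and 244 CPM in EE30 A and B but 11.9 CPM in EE30 C, and 5.43, 13.6 and 17.7 CPM in EE50 A, B and C. EE30 C therefore lay among the EE50 libraries, and the log2 fold change of 4.51 (95 % interval 2.42 to 6.60) did not pass the edgeR test (adjusted p = 0.266). Without EE30 C it did, at 5.08 on the log2 scale (edgeR adjusted p = 0.0410). Without EE30 A, EE30 B, EE50 A, EE50 B or EE50 C it did not (edgeR adjusted p = 0.414 to 0.935).

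Potri.016G124900 (chromosome 16, bases 12852660 to 12855253) had the same order of libraries, with 89.7, 57.0 and 2.51 CPM in EE30 A, B and C and 1.40, 3.58 and 5.92 CPM in EE50 A, B and C. Here too EE30 A and B were high and EE30 C was inside the range of EE50. Its log2 fold change was 3.72 (95 % interval 1.75 to 5.70, edgeR adjusted p = 0.485). The range within EE30 was 49.7-fold for Potri.006G103900 and 35.7-fold for Potri.016G124900.

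Potri.005G096200 (chromosome 5, bases 6802346 to 6802831) had 6.55, 6.14 and 18.6 CPM in EE30 A, B and C against 168, 83.7 and 45.2 CPM in EE50 A, B and C. Potri.002G055566 (chromosome 2, bases 3790202 to 3791114) had 6.93, 2.36 and 20.7 CPM against 139, 88.4 and 43.9 CPM in the same libraries. In both genes the groups were separate, and EE30 C was the highest of EE30 while EE50 C was the lowest of EE50. Their log2 fold changes were -3.22 (95 % interval -5.60 to -0.83, edgeR adjusted p = 0.676) and -3.14 (95 % interval -5.12 to -1.17, edgeR adjusted p = 0.617). The likelihood ratio test called all 4 of these genes and DESeq2 called Potri.006G103900 and Potri.016G124900.

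The same step was next compared with that of the late morning, which was measured in other libraries. The late morning libraries share another such number in the column headers, so for levels the hour of harvest and whatever that number marks cannot be told apart. No gene was called between LM30 and LM50 (0 % of genes, edgeR, smallest adjusted p = 0.154), although 1375 genes were higher and 1346 lower at an unadjusted p below 0.05, 11.5 % of genes. The late morning groups did not overlap for 8.76 % of genes that were higher and 9.84 % that were lower in LM30. DESeq2 called 33 higher and 88 lower genes in that contrast and the likelihood ratio test 98 and 143. The median absolute log2 fold change was 0.14, against 0.11 in the early evening. Whether the step differed between the times was tested gene by gene as the difference of the 2 log2 fold changes, and 0 genes passed (0 % of genes, edgeR, smallest adjusted p = 0.895, with 699 and 583 genes at an unadjusted p below 0.05 in either direction). DESeq2 and the likelihood ratio test also called 0.

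Potri.009G064800 was at 27.9 ± 2.02 CPM in LM30 and 22.1 ± 1.55 CPM in LM50 (SD, n = 3 each), which is 0.34 higher on the log2 scale (edgeR adjusted p = 0.420), and its step in the early evening was larger by 0.80 (edgeR adjusted p = 0.895). Potri.014G170400 was lower in the late morning at 22.1 ± 3.51 CPM in LM30 and 16.6 ± 2.00 CPM in LM50, 0.42 apart on the log2 scale (edgeR adjusted p = 0.409). Potri.001G105900 was several times more abundant in the late morning. It had 49.9 ± 4.48 CPM in LM30 and 76.2 ± 2.15 CPM in LM50, with a log2 fold change of -0.61. Its edgeR adjusted p of 0.154 equals the smallest of that contrast, a value that other genes can share. Potri.009G063900 was nearly level between the late morning groups, at 84.3 ± 3.44 CPM in LM30 and 87.1 ± 5.60 CPM in LM50, and its early evening step differed by -0.45 (edgeR adjusted p = 0.895). All 4 genes were chosen by their early evening step, so a smaller step in the late morning is partly fixed by that choice.

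The sign of the step at both times was counted in genes ordered by their p in the early evening. Of the 100 genes with the smallest p there, 36 were higher in EE30, and 81 % had the same sign in LM30 against LM50. Of the 500 genes with the smallest p, 73.6 % did, and of all genes tested 56.8 %. The median size of the step was 0.65 in the early evening for the 100 genes, and 0.17 in the late morning when signed by the early evening, with 31 of them at an unadjusted p below 0.05 in that direction. Over all 23700 genes the log2 fold changes of both times had a Pearson r of 0.259 and a Spearman rho of 0.220. The genes were ordered by the early evening libraries, which favours a large step there, so the smaller late morning values are partly fixed by that choice. These are descriptions across genes, which are not independent replicates, from libraries that the contrasts do not share but that were normalized and fitted together, and no source used here says whether trees were sampled at both times.

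**Figure D4:**
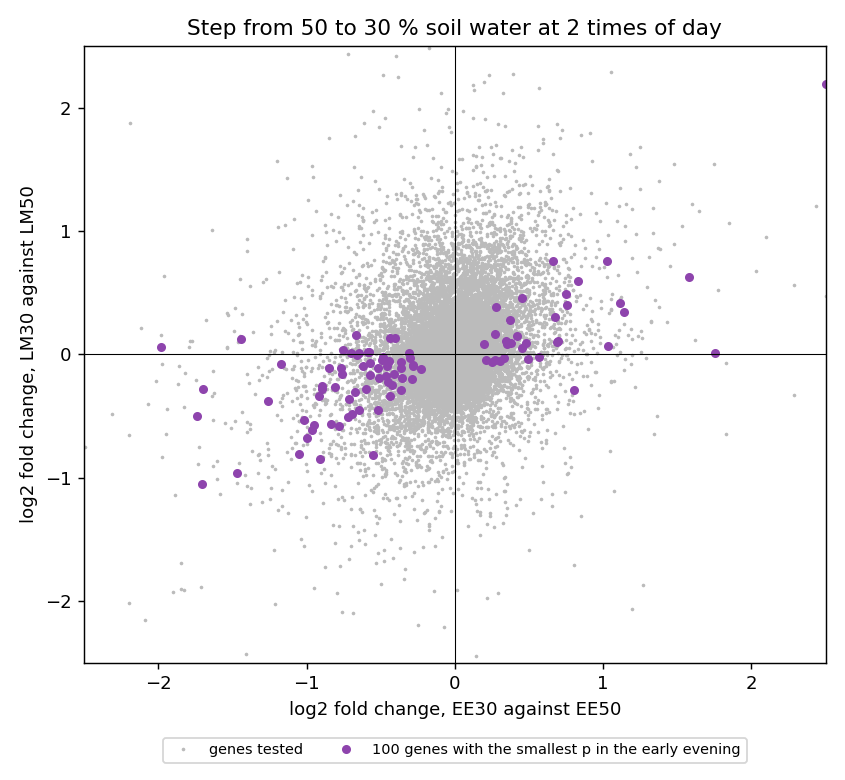
Log2 fold change of LM30 against LM50 (vertical axis) against that of EE30 against EE50 (horizontal axis) for each gene tested, with the 100 genes of smallest p in the early evening in purple. Of these 100 genes, 81 have the same sign at both times and most lie nearer to 0 on the late morning axis, and 39 genes, 3 of them purple, fall outside the axes at 2.5.

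The step from 50 % to 30 % SWCg can be set beside the step from 80 % to 50 % SWCg at the same hour, with which it shares the EE50 libraries. Between EE50 and EE80, 0 genes were higher (0 %) and 3 lower (0.0127 %) by edgeR, with 618 and 893 at an unadjusted p below 0.05, 4 and 19 called by DESeq2 and 33 and 92 by the likelihood ratio test. The count of 3 lower genes became 0 without EE50 B, EE50 C or EE80 A and 6 without EE80 B. At this step the median absolute log2 fold change was 0.11, the same as from 50 % to 30 % SWCg. The whole range from 80 % to 30 % SWCg gave 196 higher (0.827 %) and 264 lower genes (1.11 %), 1.94 % of genes (edgeR). Same-letter libraries of EE30 and EE80 deviated together for all 3 letters, and with the replicate block there were 391 higher and 472 lower genes. Without EE30 A, EE30 B, EE80 A or EE80 C the counts dropped to between 18 and 43 higher and between 44 and 75 lower, and without EE80 B there were 318 higher and 364 lower. In the 196 higher genes the median log2 fold change was 0.24 from 80 % to 50 % and 0.22 from 50 % to 30 % SWCg, and the second step was the larger in 83. In the 264 lower genes the medians were -0.34 for both steps, and the second step was the larger in 127. These genes were chosen by EE30 and EE80, so their values are a description. A test of the difference between the steps called 0 genes (0 %, edgeR, smallest adjusted p = 1.00, with 371 and 267 genes at an unadjusted p below 0.05 in either direction), and DESeq2 and the likelihood ratio test called 1 each.

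Among the 4 genes called from 50 % to 30 % SWCg, the second step minus the first was -0.56 for Potri.009G063900, 0.80 for both Potri.009G064800 and Potri.014G170400, and -0.17 for Potri.001G105900. These genes were chosen by the second step, so the values are a description, and none passed the test over all genes (edgeR adjusted p = 1.00 for each). The last gene had steps of nearly the same size, -0.79 and -0.96.

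A set of 13 circadian clock genes was followed. Other clock genes plotted in the study were not analysed here, so counts and ranks hold only within the set. In plants the clock is a loop of transcription factors in which CCA1 acts in the morning, the pseudo-response regulators PRR9, PRR7 and PRR5 follow through the day, GI and the F-box protein ZTL control protein stability, and LUX belongs to the evening complex. These roles are known from Arabidopsis. All 13 were tested and 0 were called between EE30 and EE50, 0 had an unadjusted p below 0.05 (edgeR), 0 were called by DESeq2 or by the likelihood ratio test, and in none were the groups separate. Over all genes tested, edgeR called 0.0169 %, and 5.98 % had an unadjusted p below 0.05. The groups were separate for 6.62 % of all genes that were higher and 5.54 % that were lower. Counts of 0 among 13 genes are near these shares and mark no trait of the clock set. The log2 fold changes of the 13 clock genes ran from -0.06 to 0.17 with a median of 0.04, against 0.02 for all genes, 10 being above and 3 below 0.

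The PRR9 paralogue Potri.014G106000 (chromosome 14) had the smallest p of the 13, with 62.5, 73.7 and 66.9 CPM in EE30 A, B and C and 48.6, 66.4 and 65.7 CPM in EE50 A, B and C. The groups overlapped, EE50 A being the lowest library, and the means were 67.7 ± 5.64 and 60.2 ± 10.07 CPM (SD, n = 3 each). Its log2 fold change was 0.17 (95 % interval -0.07 to 0.41, edgeR adjusted p = 0.888). The other PRR9 paralogue, Potri.002G179800 (chromosome 2), had means of 141 ± 7.70 and 130 ± 9.72 CPM (SD, n = 3 each) and a log2 fold change of 0.12 (95 % interval -0.06 to 0.31, edgeR adjusted p = 0.898). For LUX, Potri.009G035000 (chromosome 9), the means were 99.6 ± 14.9 and 88.9 ± 16.2 CPM (SD, n = 3 each) and the log2 fold change was 0.16 (95 % interval -0.14 to 0.47, edgeR adjusted p = 0.921).

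PRR5, Potri.012G005900 (chromosome 12), had the highest CPM in EE50 of the 13 clock genes followed, with 553, 633 and 602 CPM in EE30 A, B and C and 559, 700 and 606 CPM in EE50 A, B and C. The libraries of both groups were interleaved, and the log2 fold change was -0.06 (95 % interval -0.48 to 0.36, edgeR adjusted p = 0.988). In the late morning, where this gene was low, its step was -0.74 (edgeR unadjusted p = 0.00341, adjusted p = 0.235). The other PRR5 paralogue had a log2 fold change of 0.05 in the early evening (314 ± 28.1 and 302 ± 48.4 CPM, SD, n = 3 each), and GI one of 0.06 (483 ± 17.1 and 463 ± 16.8 CPM, SD, n = 3 each). The narrowest interval among the 13 was for a PRR7 paralogue at 179 ± 4.34 and 176 ± 3.55 CPM (SD, n = 3 each), whose 95 % interval ran from -0.14 to 0.17. Over all 13 genes the intervals reached from -0.51 to 0.56, both ends belonging to the other LUX paralogue.

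**Figure D5:**
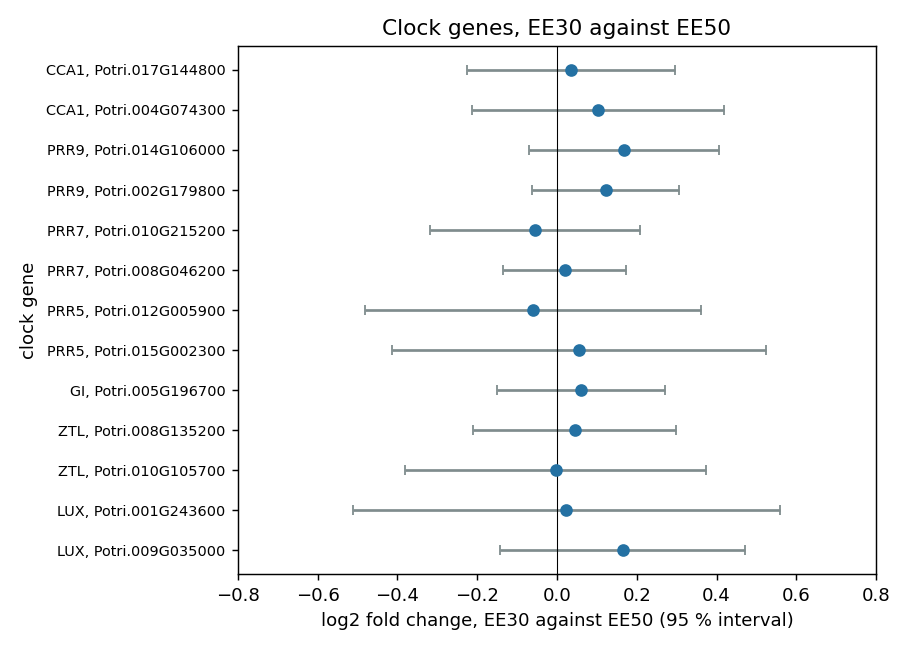
Log2 fold change of EE30 against EE50 with its 95 % interval (horizontal axis) for each of the 13 clock genes (vertical axis). All intervals include 0, the estimates lie between -0.06 and 0.17, and the intervals reach from -0.51 to 0.56.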

How the data were processed

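The deposited values are raw counts of reads per gene. The authors trimmed single-end reads of NEBNext stranded libraries with Trimmomatic (no version is given), aligned them with HISAT2 2.2.1 to P. trichocarpa v4.1, used SAMtools 1.3.1 for conversion and featureCounts 2.0.1 for counting. The header names no option for strand or multiple alignments, so by default strand is ignored and reads of near-identical paralogues are left out. Conditions came from the sample titles, and no column of values was left unused. The letters of EE30 and EE80 libraries were taken as pairs only from their correlated deviations, and no source used here says that they pair.

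The study's limits on average log2 CPM (-2 to 9) left 23700 genes. With R 4.3.3 and edgeR 4.0.16, TMM factors were computed and 1 model of 6 groups over 18 libraries was fitted, followed by quasi-likelihood F tests, Benjamini–Hochberg adjustment over all genes and a threshold of 0.05. CPM used TMM library sizes. The standard error is the log2 fold change divided by the square root of F. Distances used log2 CPM with a prior count of 2, and ranges within a group used CPM plus 0.1. Figures were drawn with Python 3.11.15, pandas 2.3.3 and matplotlib 3.10.9. The fit was tested on simulated counts drawn from the fitted dispersions, with changes set only in genes above a level limit. A library that stands apart, such as EE30 C, was not simulated, so that test does not cover this case.

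Alternatives were DESeq2 1.42.0, a likelihood ratio test with the robust dispersion that the study names, DESeq2 size factors, no filter, filterByExpr, a replicate block, fits of fewer libraries (1 time of day, or EE30 and EE50 only), and leaving out each library. Genes named are the 2 called in each direction, the 3 clock genes of smallest p with the most abundant in EE50, and genes marked as chosen after their values were seen. The members and lists were chosen with earlier results of these data known. Planned lists of drought pathways and cell type markers, promoters and gene sequences were not used here, since no annotation pairs the identifiers with descriptions.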

Additional observations from a re-analysis of the deposited data

How the results depend on the processing

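Genes called higher and lower in EE30 than in EE50 numbered 2 and 2. They were 16 and 18 with DESeq2, 22 and 54 with the likelihood ratio test, 2 and 1 with no filter, 1 and 0 in a fit of the 9 early evening libraries, 0 and 0 in a fit of the 6 libraries, and 0 to 2 and 0 to 1 when 1 library was left out. DESeq2 size factors and filterByExpr gave 2 and 2. The higher genes were 50.0 % of calls in edgeR, 47.1 % with DESeq2 and 28.9 % with the likelihood ratio test. The causes were not tested, except that smaller fits have fewer libraries. With a replicate block for the letter there were 6 higher and 3 lower, keeping 3 of the 4 genes (edgeR adjusted p = 0.0524 for Potri.009G063900). Deviations of same-letter libraries correlated at 0.090 (A), 0.251 (B) and 0.081 (C), each library best with its own letter, a hint from the data and not the design. Not every value passed 0.1, so the letters were not used as pairs for this step. Between EE50 and EE80 the values were 0.174, 0.184 and 0.070, and between EE30 and EE80, where all passed, 0.206, 0.197 and 0.378.

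Genes called higher and lower in LM30 than in LM50 numbered 0 and 0, against 33 and 88 with DESeq2, 98 and 143 with the likelihood ratio test, 2 and 3 with the replicate block, and 0 and 1 in a fit of the 9 late morning libraries. Leaving out 1 library gave 0 in each case. The difference between the times stayed at 0 in all alternatives that could be fitted, which excludes the fit of 1 time of day. The difference between the early evening steps was 0, or 1 with DESeq2 and 1 with the likelihood ratio test. Alternatives for EE30 and EE50 against EE80 were chosen after seeing the data. EE30 against EE80 gave 457 higher and 569 lower with DESeq2 and 694 and 882 with the likelihood ratio test.

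The direction of the 4 called genes held in all 14 alternatives. In the 9-library fit Potri.009G064800 kept its call (edgeR adjusted p = 0.0171), and Potri.014G170400, Potri.001G105900 and Potri.009G063900 did not (0.148, 0.148 and 0.217). Of the clock genes named, PRR5 (Potri.012G005900) changed sign without EE50 B, at 0.0331, within a range of -0.13 to 0.03 over the libraries left out. Depth of 22831424 to 33917159 counts limits genes under 1 CPM most.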

Other observations

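Potri.005G096200 and Potri.002G055566, the genes with the largest lower values in EE30 among those of 10 CPM or more, also ranged widely in the groups outside the step. Potri.005G096200 had 22.3, 122 and 50.9 CPM in EE80 A, B and C, 2.01, 4.23 and 28.1 CPM in LM30 A, B and C, 20.4, 57.3 and 13.9 CPM in LM50 A, B and C, and 11.7, 244 and 12.1 CPM in LM80 A, B and C. Potri.002G055566 had 28.7, 112 and 47.3 CPM in EE80 A, B and C and 26.1, 147 and 15.3 CPM in LM80 A, B and C. Both genes were highest in the B library of each well-watered group, where no soil water deficit was imposed.

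Potri.006G103900, which was high in EE30 A and B only among the early evening libraries, had 212, 72.4 and 74.3 CPM in LM30 A, B and C, 9.23, 63.7 and 57.7 CPM in LM50 A, B and C, and 28.4, 16.1 and 17.6 CPM in LM80 A, B and C. Every LM30 library was above every LM50 library, and the log2 fold change was 1.45 (95 % interval -0.39 to 3.29, edgeR adjusted p = 0.544). In EE80 the gene had 7.99, 11.3 and 15.7 CPM in A, B and C. Potri.016G124900 overlapped in the late morning, with 131, 62.1 and 25.6 CPM in LM30 A, B and C and 8.25, 40.4 and 28.9 CPM in LM50 A, B and C (log2 fold change 1.48, 95 % interval -0.20 to 3.15, edgeR adjusted p = 0.494).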
